A study of Mus musculus with 10 samples.

Results

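The 29 genes described here encode the machinery of sterol synthesis, uptake and intracellular transport. They were taken by symbol from a list, were found among 36528 gene identifiers, and all passed the filter on low counts. The list does not hold every enzyme of the pathway. RNA was profiled from purified tumour-associated macrophages of C57Bl/6 mice that carried MC-38 tumours, a transplanted mouse colon carcinoma line. One group had received anti-MerTK, an antibody against a receptor tyrosine kinase with which macrophages engulf dying cells, and the comparison group anti-gp120, an antibody against an HIV envelope protein. Both groups of 5 polyadenylated RNA libraries were taken 24 h after treatment. The labels do not say whether each library came from its own mouse, and do not state the dose, the route or the markers used to purify the cells. The spread that the p-values rest on is therefore that of these libraries and may be technical.

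Cells build cholesterol from acetyl-CoA through mevalonate, isoprenoid intermediates, squalene and lanosterol. When membranes of the endoplasmic reticulum hold enough sterol, Insig proteins keep the escort protein Scap and the transcription factor precursor encoded by Srebf2 in place, and genes of synthesis and uptake are transcribed less. Macrophages also take in cholesterol with lipoproteins and engulfed cells. They hydrolyse its esters in lysosomes, pass the sterol on through Npc2 and Npc1, and store the excess as esters.

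Macrophage markers were high in both groups (summed level of 10 genes 30800 to 36806 CPM, read counts scaled to a common library size with TMM factors, after anti-gp120 and 31616 to 37154 CPM after anti-MerTK). Of the macrophage markers Fcgr1, an Fc receptor, rose from 791.6 ± 115.5 to 1230.0 ± 205.8 CPM (SD, n = 5, edgeR adjusted p = 0.0247). Of 6 epithelial genes, Epcam, Krt18, Krt19 and Cldn7 had at most 0.185 CPM in any library and Krt8 at most 1.56 CPM, and these 5 were too low to test. Cdh1 fell from 46.5 ± 10.01 to 28.2 ± 3.66 CPM (SD, n = 5, edgeR adjusted p = 0.0244). Summed levels of other cell types' markers were low and overlapped between the groups, at 2.96 to 13.3 CPM for T and NK cells, 17.6 to 40.2 CPM for B cells, 6.39 to 42.4 CPM for fibroblasts, 60.6 to 104.2 CPM for neutrophils, 29.1 to 95.9 CPM for dendritic cells and 71.9 to 133.5 CPM for endothelium over the 10 libraries, and no gene of these lists passed. The libraries held 33159858 to 46108687 counted reads, which differed between the groups by less than their spread (exact permutation test, two-sided, p = 0.452). The share of mitochondrial counts was 0.711% ± 0.117 after anti-gp120 and 0.612% ± 0.0404 after anti-MerTK (SD, n = 5, exact permutation p = 0.111). Markers of monocytes were higher after anti-MerTK in 7 of 7 estimates, with a summed level of 160 to 456 CPM after anti-gp120 and 383 to 644 CPM after anti-MerTK, and Plac8 rose from 13.8 ± 10.8 to 71.4 ± 34.4 CPM (SD, n = 5, edgeR adjusted p = 0.0346). The part of monocyte RNA and of Cdh1-expressing cells in the results below was not tested. In RNA from whole cell preparations, fewer cells of a type and less RNA per cell cannot be told apart.

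Promoter sequences are shown first, and their part in the genes' levels was not tested. Of the 29 genes, 24 had a promoter window in RefSeq's table for GRCm38.p6, from 250 bases before a listed start to 50 after it. Some genes had more than 1 window (30 windows in all), and a gene counted as matched when any window held the motif. For Dhcr7 the CCAAT matches lay in a window inside the gene (143829964 to 143830263). Fdft1, Fdps, Npc1, Sqle and Stard4 had no window, and Npc1, Fdft1 and Stard4 are among the 8 genes of smallest p. The windows were searched on both strands for the classical sterol regulatory element with at most 1 mismatch, for CCAAT, the box bound by NF-Y, and for the GC box GGGCGG, motifs picked after several had been tried and with the genes' values known. A sterol regulatory element match was found for 3 of the 24 genes (12.5%), namely Hmgcs1, Srebf2 and Nsdhl, against 2.22% of all 27025 genes with a window and 2.06% of the tested genes with one. CCAAT was found for 22 of 24 (91.7%), all but Acat2 and Scap, against 41.1% of all genes and 42.8% of the tested genes. The GC box was found for 21 of 24 (87.5%), against 38.2% and 66.9%. No match of one motif overlapped another in the windows of Hmgcs1, Srebf2 and Nsdhl. A match describes letters in a window and is not a measured binding site. The 250 bases before the start follow for the 3 genes with a sterol regulatory element match and for Cyp51, whose estimate was the lowest of the list. They also follow for Msmo1, which had 3 CCAAT boxes on the same strand. Hmgcs1, Nsdhl, Hsd17b7 and Mvk likewise had at least 3 on the same strand in their full windows. Capitals mark both motifs, and CCAAT on the opposite strand reads ATTGG.
Hmgcs1, chr13:119690101-119690350, + strand: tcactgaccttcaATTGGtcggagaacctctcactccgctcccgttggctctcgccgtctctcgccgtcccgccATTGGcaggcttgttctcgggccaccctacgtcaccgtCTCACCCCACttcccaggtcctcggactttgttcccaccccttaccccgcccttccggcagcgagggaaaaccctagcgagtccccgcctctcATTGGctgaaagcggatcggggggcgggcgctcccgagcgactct
Srebf2, chr15:82147019-82147268, + strand: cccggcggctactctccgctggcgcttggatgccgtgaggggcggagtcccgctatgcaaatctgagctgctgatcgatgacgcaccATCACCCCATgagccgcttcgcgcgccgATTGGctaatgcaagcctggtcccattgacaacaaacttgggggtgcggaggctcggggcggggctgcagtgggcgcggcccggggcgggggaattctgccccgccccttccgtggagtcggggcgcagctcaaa
Nsdhl, chrX:72918271-72918520, + strand: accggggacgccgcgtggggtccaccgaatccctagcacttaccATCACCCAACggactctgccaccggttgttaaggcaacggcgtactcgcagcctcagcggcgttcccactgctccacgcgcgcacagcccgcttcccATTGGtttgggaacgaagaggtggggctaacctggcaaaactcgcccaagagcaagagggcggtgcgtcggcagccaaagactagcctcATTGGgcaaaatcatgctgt
Cyp51, chr5:4104698-4104947, - strand: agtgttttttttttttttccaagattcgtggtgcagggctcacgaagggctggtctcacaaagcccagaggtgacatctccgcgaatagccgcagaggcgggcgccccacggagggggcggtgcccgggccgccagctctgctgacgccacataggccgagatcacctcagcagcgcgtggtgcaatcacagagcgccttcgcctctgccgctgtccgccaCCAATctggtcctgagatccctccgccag
Msmo1, chr8:64733579-64733828, - strand: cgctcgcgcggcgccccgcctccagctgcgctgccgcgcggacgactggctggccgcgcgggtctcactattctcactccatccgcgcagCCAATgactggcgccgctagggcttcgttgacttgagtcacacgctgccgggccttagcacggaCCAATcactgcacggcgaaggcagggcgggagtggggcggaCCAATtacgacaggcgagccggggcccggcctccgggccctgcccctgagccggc
Counted from the first base of the element, the match differed from it by A1C in Hmgcs1, by C10T in Srebf2 and by C8A in Nsdhl. The matches began at bases 113, 88 and 45 of their windows.

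The comparison asks how transcripts of sterol metabolism differed in tumour macrophages a day after the antibody against MerTK. Estimates were lower after anti-MerTK for 26 of the 29 genes, with a median log2 fold change of -0.20, but no single gene passed the test. In edgeR's quasi-likelihood test with Benjamini-Hochberg adjustment over 13588 genes, 0 of 29 had an adjusted p under 0.05, where 3.22% of all tested genes did (1.85% higher and 1.38% lower after anti-MerTK). At an unadjusted p under 0.05 there were 10 of 29 (34.5%), all lower, against 20.9% of all tested genes in either direction and 10.8% in the lower direction. Negative estimates made up 51% of all tested genes, whose median log2 fold change was -0.01. The groups did not overlap for 1 gene of the list, Npc1, and for 5.97% of all tested genes. DESeq2 called 4 genes lower (Npc1, Stard4, Sc5d and Hmgcs1), where it called 9.19% of all genes with an adjusted p. Limma-voom with quality weights called Npc1, and 7.62% of all tested genes. Without anti-gp120 replicate 5, 4 genes passed in edgeR (Npc1, Fdft1, Stard4 and Sc5d), beside 3.94% of all tested genes. Without anti-gp120 replicate 1 Npc1 passed, beside 3.7% of all tested genes. The number at an unadjusted p under 0.05 was 6 of 29 without anti-gp120 replicate 3, and also 6 without replicate 4. The share of all tested genes was not counted in those fits (20.9% with all libraries). Whether the list still stood out there is therefore not shown. Over all genes the number called, 438, was 70 to 243 without anti-gp120 replicate 2 or 4 or any one of anti-MerTK replicates 1 to 4.

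**Figure D1:**
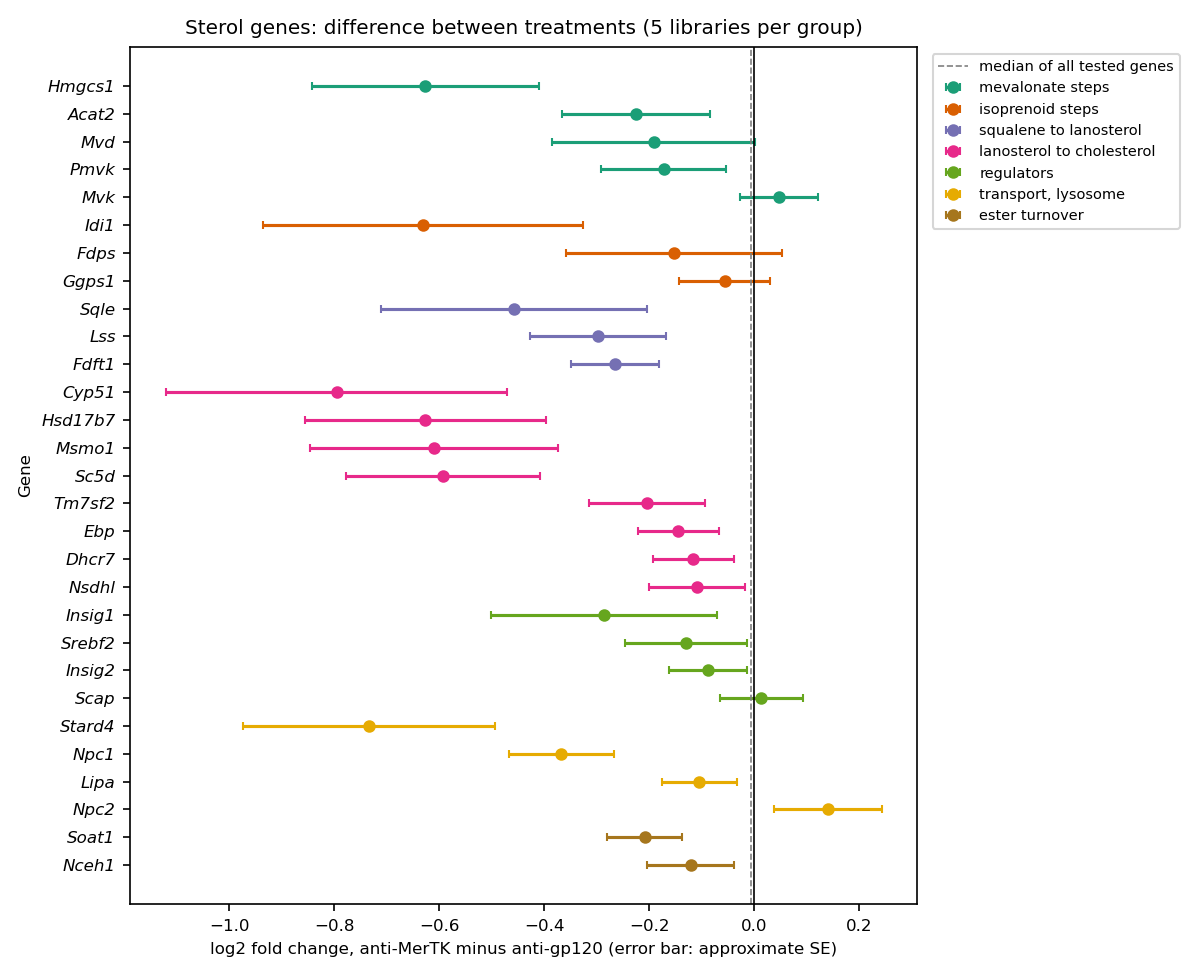
Difference between anti-MerTK and anti-gp120 for each of the 29 genes on the log2 scale (points, with the approximate SE as bars), coloured by step of the pathway; the dashed line is the median of all tested genes. Estimates run from -0.80 for Cyp51 to 0.14 for Npc2, and 26 of 29 lie left of 0.

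Levels per gene length, in the RPKM values of the authors, were highest for 2 lysosomal proteins and lowest for Idi1, an isoprenoid enzyme. After anti-gp120 the highest was Npc2, the soluble sterol carrier of the lysosome, at 688 ± 100 RPKM (SD, n = 5), followed by the lysosomal acid lipase Lipa at 153 ± 9.99 RPKM. Ebp, the sterol isomerase, had 60.1 ± 5.85 RPKM, Soat1 53.6 ± 2.71 RPKM and Npc1 45.9 ± 6.79 RPKM, and in this order each of the 3 overlapped the next within 1 SD. The lowest were Idi1 at 0.33 ± 0.13 RPKM and Lss at 1.42 ± 0.28 RPKM. Only uniquely aligning reads were counted, and transcripts of Idi1, Fdps and Acat2 share 25.3%, 26.2% and 39.1% of their 50-base stretches with other annotated genes, so the levels of these 3 are uncertain. Fdft1 shares 26.5% with Gm6781 and with Ctsb, the gene of cathepsin B, whose annotation overlaps it and which had 7999 ± 517 CPM after anti-gp120 and a log2 fold change of 0.01. Reads of the pair may be split between them, so the level of Fdft1 is uncertain as well. Tm7sf2 likewise overlaps Vps51 and shares 9.87% with it. Hmgcs1, Scap and Ggps1 share 11.6%, 9.96% and 9.58% of their stretches with other annotated genes, which limits their levels too.

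Enzymes up to mevalonate and its phosphorylated forms had lower estimates in 4 of 5 cases. Hmgcs1, which condenses acetyl-CoA units ahead of mevalonate (Entrez 208715, GRCm38 chromosome 13, 119690351 to 119708260), has the match shown above, with 1 mismatch to the element. For replicates 1 to 5 in order, as in each sentence of this kind, Hmgcs1 had 26.4, 37.4, 50.7, 44.0 and 22.9 CPM after anti-gp120 and 20.5, 19.0, 21.8, 31.0 and 25.1 CPM after anti-MerTK. Anti-gp120 replicates 2, 3 and 4 were above every anti-MerTK library, while replicates 1 and 5 lay among them. Its log2 fold change was -0.63 (SE 0.22, edgeR adjusted p = 0.131). Acat2, Mvd and Pmvk, the thiolase, the decarboxylase and the kinase of phosphomevalonate, had log2 fold changes of -0.23, -0.19 and -0.17, and Mvk, mevalonate kinase, of 0.05 (edgeR adjusted p between 0.380 and 0.749). Mvk differed little between libraries, from 12.8 to 16.0 CPM.

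In the isoprenoid steps Idi1, the isomerase of isopentenyl diphosphate, had the lowest estimate at a very low level, 0.95 ± 0.37 and 0.61 ± 0.17 CPM (SD, n = 5, log2 fold change -0.63, edgeR adjusted p = 0.257). Fdps, farnesyl diphosphate synthase, and Ggps1, which makes geranylgeranyl diphosphate for protein prenylation, had log2 fold changes of -0.15 and -0.06 (edgeR adjusted p = 0.706 and 0.747). Both turned slightly positive without anti-gp120 replicate 3, at 0.01 and 0.02. Ggps1, which stands off the main line to sterols, ranged only from 19.5 to 26.4 CPM over the 10 libraries.

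Of the enzymes from farnesyl diphosphate to lanosterol, all 3 had lower estimates. Fdft1, squalene synthase (Entrez 14137, chromosome 14, 63145150 to 63181687), gave 41.7, 42.5, 44.0, 42.6 and 33.1 CPM after anti-gp120 and 32.0, 32.9, 36.1, 32.2 and 36.4 CPM after anti-MerTK. Its groups overlapped through anti-gp120 replicate 5 alone, which fell among the anti-MerTK libraries. The log2 fold change was -0.27 (SE 0.08, edgeR adjusted p = 0.101), and without that library -0.33 (edgeR adjusted p = 0.0232). Leaving out anti-gp120 replicate 4 instead gave -0.25 (edgeR adjusted p = 0.237). Sqle, squalene epoxidase, and Lss, which folds the epoxide into lanosterol, had log2 fold changes of -0.46 and -0.30 (edgeR adjusted p = 0.328 and 0.214). Lss was at 8.18 to 8.88 CPM in the anti-MerTK libraries and at 7.53 to 12.3 CPM after anti-gp120, where replicate 5 was the lowest of all 10.

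All 8 enzymes between lanosterol and cholesterol had lower estimates, and 4 of them had an unadjusted p under 0.05. Cyp51, lanosterol demethylase (Entrez 13121, chromosome 5, 4080674 to 4104697), had 43.6, 80.7, 102.8, 99.7 and 37.6 CPM after anti-gp120 and 30.1, 26.5, 43.3, 61.4 and 48.4 CPM after anti-MerTK (its libraries are given although the rule for such detail did not pick it). Levels after anti-gp120 thus formed a high set, replicates 2, 3 and 4, and a low pair that lay inside the anti-MerTK range. The estimate, -0.80 on the log2 scale, was the lowest of the list and had an SE of 0.32 (edgeR adjusted p = 0.195).

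Sc5d, sterol desaturase (Entrez 235293, chromosome 9, 42251592 to 42264300), had 17.7, 21.3, 28.0, 25.9 and 14.2 CPM after anti-gp120 and 12.6, 10.7, 14.8, 17.3 and 15.5 CPM after anti-MerTK. Only anti-gp120 replicate 5 was within the anti-MerTK range. The log2 fold change of Sc5d was -0.59 (SE 0.19, edgeR adjusted p = 0.102), and -0.71 without that replicate (edgeR adjusted p = 0.0398). Leaving out anti-gp120 replicate 4 instead gave -0.51 for Sc5d (edgeR adjusted p = 0.248). Hsd17b7, the reductase of the demethylation complex, had 7.50, 12.5, 12.9, 13.3 and 6.23 CPM after anti-gp120 and 5.63, 5.06, 6.64, 8.41 and 8.19 CPM after anti-MerTK. Again replicates 2, 3 and 4 after anti-gp120 stood above all others, and the log2 fold change was -0.63 (SE 0.23, edgeR adjusted p = 0.150). Msmo1, the methyl oxidase of the same complex, had 43.9, 52.3, 96.9, 73.4 and 40.4 CPM after anti-gp120 and 32.8, 34.0, 38.3, 47.9 and 47.9 CPM after anti-MerTK. Its high libraries were again anti-gp120 replicates 2, 3 and 4, with replicate 3 far ahead, and the log2 fold change was -0.61 (SE 0.24, edgeR adjusted p = 0.172).

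The other 4 enzymes of this stretch differed less. Ebp (Entrez 13595, chromosome X, 8185329 to 8193512) had 108.6, 95.8, 117.8, 94.5 and 105.2 CPM after anti-gp120 and 89.7, 85.1, 97.0, 98.2 and 102.1 CPM after anti-MerTK. The groups overlapped broadly, and the log2 fold change was -0.14 (SE 0.08, edgeR adjusted p = 0.300). Tm7sf2, a sterol reductase, Dhcr7, which makes the last reduction to cholesterol, and Nsdhl, the decarboxylase of the demethylation complex, had log2 fold changes of -0.20, -0.12 and -0.11 (edgeR adjusted p between 0.307 and 0.522). Nsdhl and Hmgcs1 both have an element match in their windows, while their estimates were -0.11 and -0.63.

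**Figure D2:**
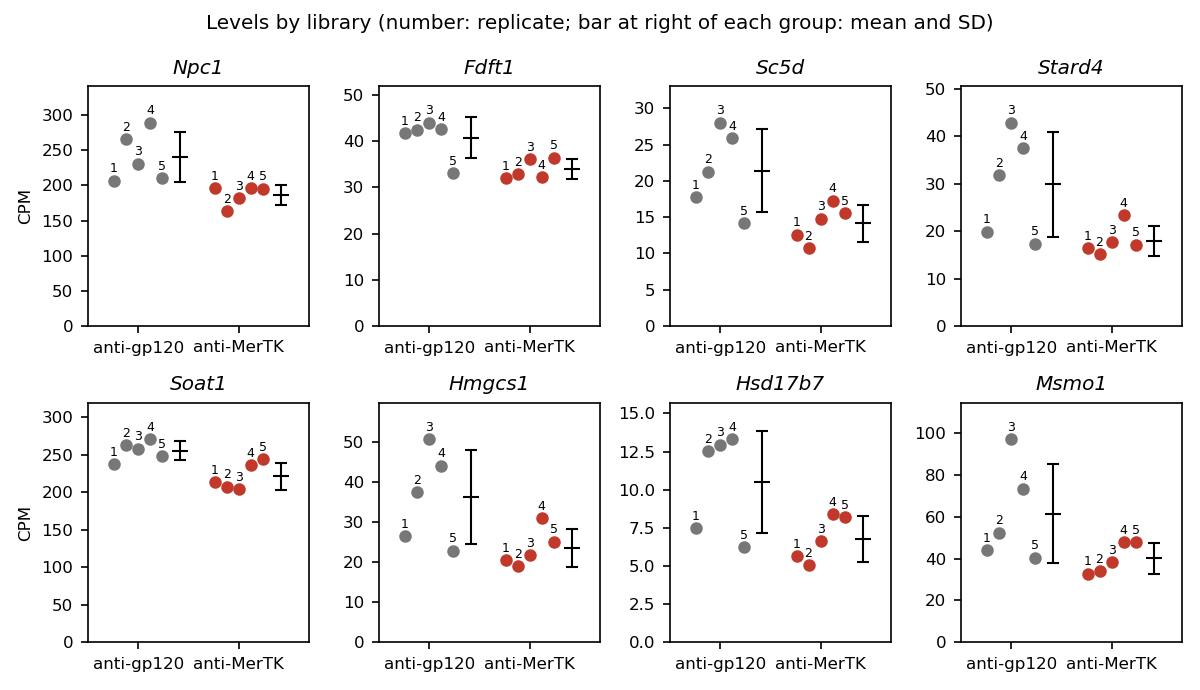
Level in each library (points, CPM, linear axes from 0, numbered by replicate) of the 8 genes with the smallest p, with the mean and SD of 5 libraries per group. Npc1 alone has no overlap between groups. In all 8 genes anti-gp120 replicates 1 and 5 lie below replicates 2, 3 and 4, though only narrowly for replicate 1 in Fdft1.

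Of the regulators among the 29 genes, Srebf2, Scap and Insig2 differed little between the groups at the transcript level, and Insig1 had the lowest estimate. Srebf2, whose product drives transcription of the pathway, had 94.1, 132.0, 110.2, 133.7 and 95.2 CPM after anti-gp120 and 105.5, 88.6, 103.9, 121.1 and 97.4 CPM after anti-MerTK (log2 fold change -0.13, SE 0.12, edgeR adjusted p = 0.556). Scap, its escort, had 44.7, 48.3, 47.7, 49.5 and 57.9 CPM after anti-gp120 and 53.3, 50.7, 52.6, 49.7 and 44.0 CPM after anti-MerTK (log2 fold change 0.01, SE 0.08, edgeR adjusted p = 0.942). Neither gene separated the groups. Insig1, the retention protein that is itself a target of the pathway's transcription factor, had 67.0, 106.9, 147.4, 128.0 and 82.2 CPM after anti-gp120 and 72.3, 70.7, 83.0, 117.6 and 92.1 CPM after anti-MerTK. Within the anti-gp120 group its lowest libraries were replicates 1 and 5, as for Srebf2 and several of the enzymes. The log2 fold change of Insig1 was -0.29 (SE 0.21, edgeR adjusted p = 0.473). Insig2, its relative, stayed between 22.1 and 28.7 CPM in all 10 libraries, with 28.7, 24.7, 27.6, 26.5 and 23.3 CPM after anti-gp120 and 25.5, 25.2, 24.5, 22.1 and 25.6 CPM after anti-MerTK (log2 fold change -0.09, SE 0.07, edgeR adjusted p = 0.523). Whether the 2 Insig genes differed in response was not tested.

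Among proteins that move sterol inside the cell, Npc1, the transporter that carries cholesterol out of lysosomes (Entrez 18145, chromosome 18, 12189694 to 12236506), had 206.6, 266.1, 231.1, 289.4 and 210.7 CPM after anti-gp120 and 196.0, 163.6, 181.7, 196.4 and 195.2 CPM after anti-MerTK. Each anti-MerTK library was below each anti-gp120 library. The log2 fold change was -0.37 (SE 0.10), with the smallest p of the list, and did not pass in edgeR (adjusted p = 0.0679, and 0.0152 to 0.187 over the alternatives). Npc1 overlaps Rmc1 on the annotation, but Rmc1 had only 29.8 ± 1.13 CPM after anti-gp120 and a log2 fold change of -0.04. Stard4, a cytosolic sterol carrier (Entrez 170459, chromosome 18, 33199138 to 33213862), had 19.9, 31.8, 42.9, 37.5 and 17.4 CPM after anti-gp120 and 16.5, 15.1, 17.7, 23.4 and 17.1 CPM after anti-MerTK. It resembled Hmgcs1 and Cyp51 over the libraries, high in anti-gp120 replicates 2, 3 and 4 and lower in the others (log2 fold change -0.73, SE 0.24, edgeR adjusted p = 0.115). Without anti-gp120 replicate 5 the estimate was -0.88 (edgeR adjusted p = 0.0424), and without replicate 4 it was -0.64 (edgeR adjusted p = 0.274).

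Npc2 (Entrez 67963, chromosome 12, 84754559 to 84773112), which hands cholesterol to Npc1, was the gene with the highest positive estimate. It had 2150.6, 1789, 2427, 2195 and 2623 CPM after anti-gp120 and 2246, 2487, 2366, 2528 and 2691 CPM after anti-MerTK (log2 fold change 0.14, SE 0.10, edgeR adjusted p = 0.463). All 5 anti-MerTK libraries were above the anti-gp120 mean, while anti-gp120 replicates 3 and 5 lay among them. Lipa, which hydrolyses cholesteryl esters in lysosomes, had 430.0, 432, 495, 446 and 466 CPM after anti-gp120 and 401, 467, 426, 425 and 391.9 CPM after anti-MerTK (log2 fold change -0.10, SE 0.07, edgeR adjusted p = 0.430).

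Both genes of ester turnover in the cytoplasm had lower estimates. Soat1, which esterifies cholesterol for storage (Entrez 20652, chromosome 1, 156428108 to 156474328), had 238, 263, 258, 271 and 248 CPM after anti-gp120 and 214, 208, 204, 236 and 244 CPM after anti-MerTK. Only anti-gp120 replicate 1 was within the anti-MerTK range, and the log2 fold change was -0.21 (SE 0.07, edgeR adjusted p = 0.119). Nceh1, the hydrolase of the opposite reaction, had 165.6 ± 10.6 and 152.3 ± 17.8 CPM (SD, n = 5, log2 fold change -0.12, edgeR adjusted p = 0.430).

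The libraries were not alike within groups. Anti-gp120 replicates 1 and 5 were the lowest pair of their group for 19 of the 29 genes (65.5%), where this held for 10.1% of all tested genes. Anti-MerTK replicates 4 and 5 were the highest pair of theirs for 17 of 29 (58.6%), against 12.2% of all tested genes. Both pairs were picked after the values were seen, and no test was made of them. Anti-gp120 replicate 3 was the highest of all 10 libraries for 16 of the 29 genes (15.3% of all tested genes) and anti-MerTK replicate 2 the lowest for 14 of 29 (16.3% of all tested genes). Without anti-gp120 replicate 3 the median log2 fold change of the list was -0.14, and without anti-MerTK replicate 2 it was also -0.14. Without anti-MerTK replicates 2 and 5 together it was -0.20, with 6 of 29 genes at an unadjusted p under 0.05 and 0 past the adjusted threshold in edgeR. The share of all tested genes at the unadjusted threshold was not counted in that fit (20.9% with all libraries).

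**Figure D3:**
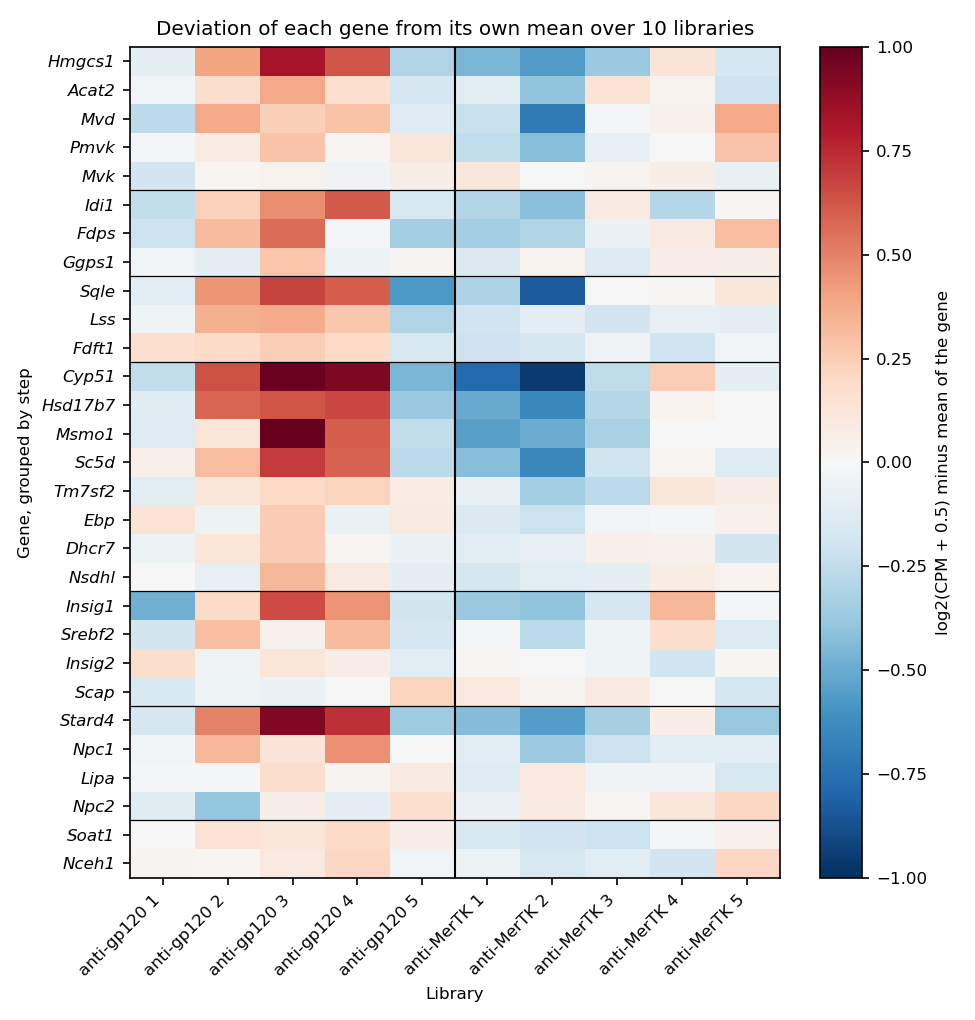
Deviation of each gene from its own mean over the 10 libraries, in log2(CPM + 0.5), grouped by step of the pathway, with 1 column per library; red is higher and blue lower, with colours saturating at 1 and -1. The strongest red stands in anti-gp120 replicates 2, 3 and 4, and anti-MerTK replicate 2 has the lowest median deviation, -0.30, with 25 of 29 genes below their own mean.

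Other genes of the pathway came from 4 further lists. Of 15 genes of side branches and oxysterols that were tested, 1 rose after anti-MerTK and 0 fell in edgeR, beside 1.85% and 1.38% of all tested genes. Their median log2 fold change was 0.01. The gene that rose was Coq2, which attaches the isoprenoid tail of ubiquinone and so draws on the same pathway. It had 24.5, 21.0, 21.7, 17.99 and 19.8 CPM after anti-gp120 and 31.7, 38.6, 29.2, 26.9 and 28.0 CPM after anti-MerTK, with no overlap of the groups (log2 fold change 0.56, SE 0.11, edgeR adjusted p = 0.0230). Coq2 did not pass without anti-gp120 replicate 2 or 4 or anti-MerTK replicate 1 or 3 (edgeR adjusted p = 0.0582, 0.0719, 0.0628 and 0.0519).

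Ch25h encodes the enzyme that hydroxylates the cholesterol side chain, and its oxysterol product is known to restrain processing of the Srebf2 protein and to be induced by interferon in macrophages. Ch25h had 296.4, 116.2, 124.0, 96.8 and 228.8 CPM after anti-gp120 and 452, 727, 441, 225 and 235 CPM after anti-MerTK. All 5 anti-MerTK libraries were above the anti-gp120 mean, and anti-gp120 replicates 1 and 5 lay within their range (log2 fold change 1.27 with an SE of 0.40, adjusted p = 0.107 in edgeR and 0.0405 in limma-voom with quality weights). Set beside the sterol genes, the 2 highest anti-gp120 libraries for Ch25h were replicates 1 and 5, the pair lowest for 19 of the 29 genes. Likewise the 2 lowest anti-MerTK libraries for Ch25h, replicates 4 and 5, were the pair highest for 17 of 29, and its highest library, anti-MerTK replicate 2, was the lowest of all for 14. Anti-MerTK replicate 2 also stood apart over all genes, at -46.6 on the first principal component where the other libraries lay between -16.0 and 28.3, and it was the highest library for 17.3% and the lowest for 16.3% of all tested genes. Without it the log2 fold change of Ch25h was 0.98 (edgeR adjusted p = 0.230). The part of Ch25h in the sterol genes' levels was not tested.

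**Figure D4:**
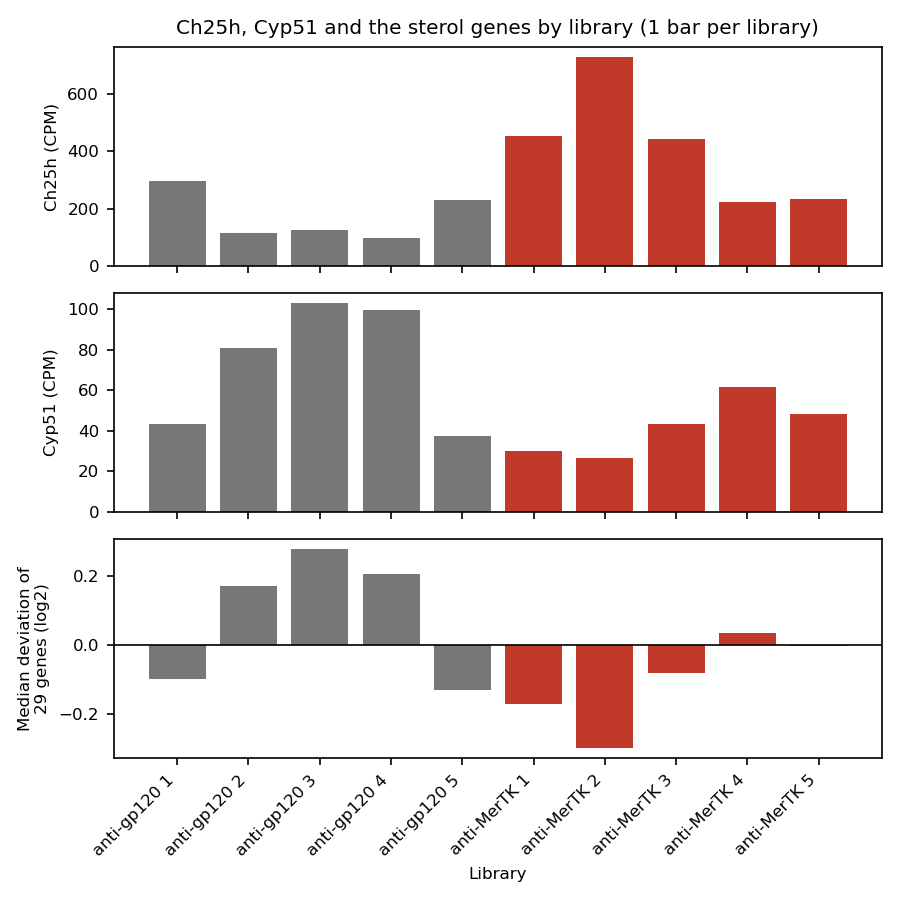
Level of Ch25h (top, CPM), level of Cyp51 (middle, CPM) and median deviation of the 29 genes from their own means (bottom, log2), 1 bar per library, grey for anti-gp120 and red for anti-MerTK. Anti-MerTK replicate 2 has the highest Ch25h, 727 CPM, the lowest Cyp51, 26.5 CPM, and the lowest median deviation, -0.30.

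Of 18 genes of sterol uptake and transport beyond the 29, 1 rose and 0 fell in edgeR, beside 1.85% and 1.38% of all tested genes. Stard3, which tethers late endosomes to the endoplasmic reticulum and passes sterol between them, had 89.4, 82.3, 98.4, 92.3 and 109.7 CPM after anti-gp120 and 136.6, 155.8, 126.5, 130.9 and 119.8 CPM after anti-MerTK. Its groups did not overlap (log2 fold change 0.50, SE 0.09, edgeR adjusted p = 0.0169), but it did not pass without anti-gp120 replicate 4 (edgeR adjusted p = 0.0593). Stard3 and Stard4 thus had estimates of opposite sign, 0.50 and -0.73, of which that of Stard4 did not pass. Osbpl2, a lipid transfer protein, had a log2 fold change of -0.21 (SE 0.06) without passing in edgeR (adjusted p = 0.0878). DESeq2 called Osbpl2 lower (adjusted p = 0.0293), and also Osbp lower and Stard5 higher, and limma-voom with quality weights called Osbpl2 lower (adjusted p = 0.0461).

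In the list of 15 regulators, 0 passed in edgeR, where 3.22% of all tested genes did. An unadjusted p under 0.05 was found for 6, of which 5 were lower, against 20.9% of all tested genes in either direction. DESeq2 passed 3 of the 15 (Nr1h3, Tmem41b and Mbtps2), beside 9.19% of all genes with an adjusted p. Limma-voom with quality weights passed 1 (Mbtps2), beside 7.62% of all tested genes. Nr1h3, the sterol-sensing receptor LXR alpha, had 57.7 ± 7.77 and 90.3 ± 29.2 CPM (SD, n = 5, log2 fold change 0.64, SE 0.19, edgeR adjusted p = 0.0907). Mbtps2, a protease that releases the active Srebf2 fragment, had 28.3 ± 3.16 and 23.5 ± 1.33 CPM (SD, n = 5, log2 fold change -0.27, SE 0.08, edgeR adjusted p = 0.0962). Fatty acid synthesis, served largely by the related factor Srebf1, had 13 genes tested, 11 with a negative estimate and a median log2 fold change of -0.20. Over all tested genes 51% of the estimates were negative. In edgeR, DESeq2 and limma-voom 0 of the 13 passed (1, Scd2, did with 1 surrogate variable). An unadjusted p under 0.05 in edgeR was found for 2, both lower, against 10.8% of all tested genes in the lower direction. These were the desaturase Fads1, with a log2 fold change of -0.32 (SE 0.11, edgeR adjusted p = 0.129), and the acyl-CoA synthetase Acsl3, with -0.48 (SE 0.21, edgeR adjusted p = 0.221).

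**Figure D5:**
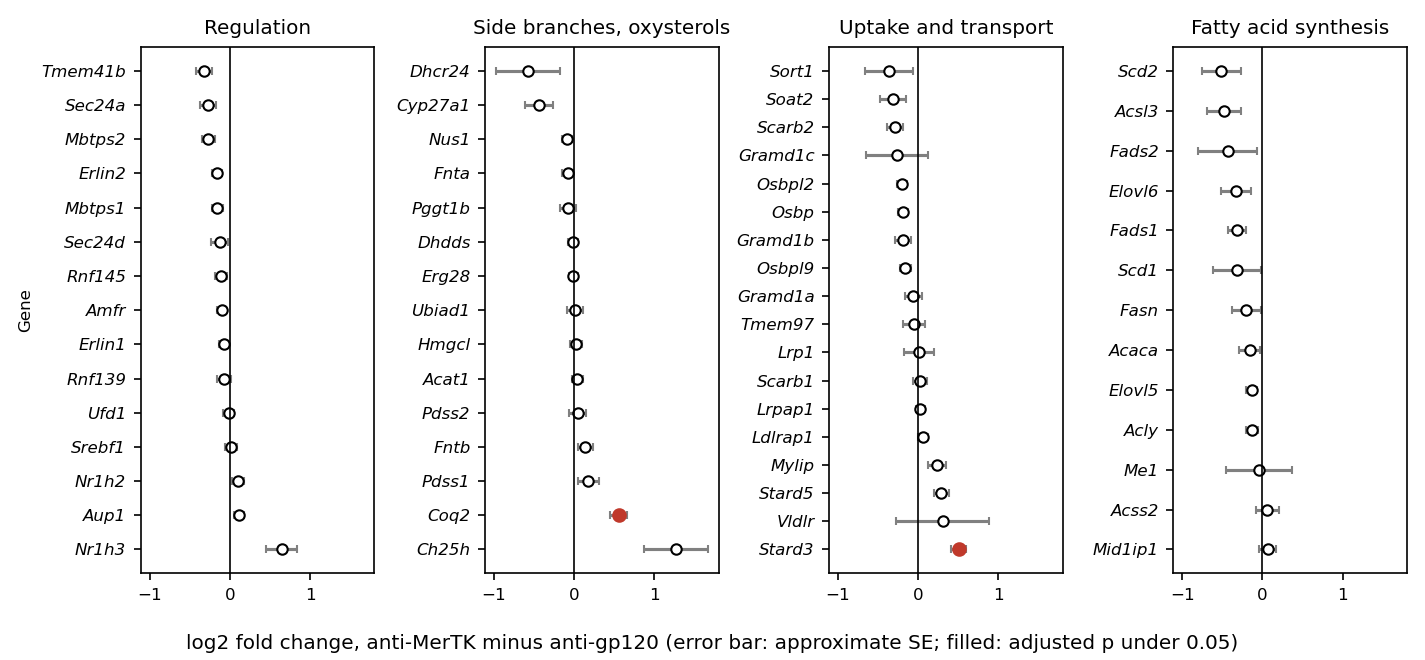
Difference between anti-MerTK and anti-gp120 on the log2 scale (points, with the approximate SE as bars) for the tested genes of 4 further lists; filled points have an edgeR adjusted p under 0.05. Coq2 and Stard3 are the filled points, at 0.56 and 0.50, and Ch25h lies farthest right at 1.27.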

How the data were processed

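Reads were aligned by the authors with GSNAP to GRCm38, per the submitters' processing notes. Annotation release, counting tool and strand setting: not given in the sources used here. For each gene model the authors deposited a raw count of its uniquely aligned reads, per the file headers. They also deposited RPKM values that include a size factor, per the file headers; these were used for levels between genes and to recover library factors. Gene symbols came from RefSeq's table for GRCm38.p6, which named 31049 of 36528 identifiers. Unnamed genes, 2.14% to 2.66% of the counts of a library, stayed in all fits. Replicate numbers follow the order of deposition.

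Counts were filtered with edgeR's filterByExpr, which left 13588 genes, and tested with edgeR's quasi-likelihood test (edgeR 4.0.16, R 4.3.3) with TMM normalization, robust dispersions and treatment as the only term. All p-values are two-sided, and adjusted p-values use the Benjamini-Hochberg method with a threshold of 0.05. SEs are approximate, taken from the fold change and its F statistic. CPM values use TMM library sizes. Library measures were compared by an exact permutation test over 252 assignments. The edgeR fit was tested on simulated data. No 2 libraries agreed within sampling noise (smallest chi-square per degree of freedom 29.0).

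The members and lists were chosen with earlier results of these data known. Values in each library are given for the 8 members of smallest p, the 3 of highest mean RPKM and 4 regulators. Each further list is represented by its 2 genes of smallest p and any that pass. Alternatives were RLE, upper quartile and the authors' library factors, no filter, 5 CPM in 5 libraries, DESeq2 1.42.0, limma-voom with quality weights (limma 3.58.1), 1 surrogate variable (sva 3.50.0), leaving out each library, and leaving out anti-MerTK replicates 2 and 5. Shared 50-base stretches were counted in GENCODE transcripts, on both strands.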

Additional observations from a re-analysis of the deposited data

Results flagged for a closer look

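For 1 of 80 sets of 5 libraries examined (each of the 29 genes, 8 further genes and 3 library measures in both groups), the lowest library stood apart from the rest of its group, where chance flags about 1 in 20. Fdft1 in anti-gp120 replicate 5 had 33.1 CPM, and the other 4 anti-gp120 libraries had 41.7 to 44.0 CPM. Its gap to the nearest library was 0.792 of the range of the group.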

How the results depend on the processing

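With DESeq2 1152 genes were called (9.19% of all genes with an adjusted p), among them 4 of the 29 sterol genes and 8 other pathway genes. Limma-voom with quality weights called 1036 (7.62% of all tested genes), among them 1 sterol gene and 5 other pathway genes. The other pathway genes are those of the 4 further lists, with 15, 15, 18 and 13 genes tested in edgeR. No share was taken over these lists together, so their counts do not show whether they stood out. With 1 surrogate variable 4 other pathway genes were called, beside 643 of all 13588 tested genes. Without anti-MerTK replicates 2 and 5, 204 genes were called in all. With single libraries left out, all called genes numbered 70 to 654, called sterol genes 0 to 4, other pathway genes called 0 to 3, and the median log2 fold change of the sterol genes lay between -0.27 and -0.14. Of the near-zero estimates, that of Scap was -0.0060 with 1 surrogate variable and -0.0234 to 0.0754 with single libraries left out, that of Fdps -0.268 to 0.00714 and that of Ggps1 -0.0917 to 0.0178. The cause of these shifts was not tested. The other normalizations and filters kept 0 of the tested sterol genes called and a median between -0.20 and -0.19, where 27 of the 29 passed the filter of 5 CPM in 5 libraries. No paired analysis was possible because the labels give no replicate numbers. Idi1 had only 14 to 52 counts per library, the fewest of the 29 genes, which limits what its estimate can show.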

Other observations

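The spread between libraries was larger after anti-gp120 than after anti-MerTK for 23 of the 29 sterol genes (79.3%), against 58.5% of all tested genes. The median coefficient of variation of the 29 was 14.9% after anti-gp120 and 11.7% after anti-MerTK, beside 13.04% and 11.4% over all tested genes. Cyp51 varied most after anti-gp120 (42.2%), followed by Idi1 (39.3%), Msmo1 (38.5%) and Stard4 (36.9%), and Soat1 least (5.05%). Lss, at 20.01% after anti-gp120, had 3.96% after anti-MerTK. No test was made of these differences in spread.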
